A study of Mus musculus with 6 samples.

Results

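The genes described here are 4 adult globin genes and 6 other genes of red cell development. They were chosen by name, with earlier results of these data known. The globins are the beta-globins Hbb-bs and Hbb-bt and the alpha-globins Hba-a1 and Hba-a2. The others are the erythropoietin receptor Epor, the Rh-associated glycoprotein Rhag, the transcription factors Klf1 and Gata1, and the carbonic anhydrases Car1 and Car2. These 10 genes are among the 37620 gene rows in the table. All 10 passed the filter on low values (a mean of at least 10) and were tested. Their RNA was sequenced from sorted bone marrow of C57BL/6 mice, in 6 libraries of GMPs, the granulocyte-macrophage progenitors that give rise to granulocytes and monocytes. The 3 control libraries came from Bap1 f/f mice, which carry floxed Bap1 and no Cre. The 3 libraries labelled knockout came from MX1+ Cre Bap1 f/f mice. Bap1 encodes a deubiquitinase that acts on histone H2A. According to the labels every mouse was 65 days old and had been given pIpC (polyI:polyC) at 42 days, so both groups received this inducer of interferon, while the series' own design text gives an earlier age for it. Cre was driven by the interferon-responsive Mx1 promoter, which is not restricted to GMPs, and it was present in the knockout group alone, so effects of Cre and of Bap1 deletion cannot be told apart. The GMPs had been sorted as Lineage-, c-Kit+, Sca1-, CD34+ cells with an Fc receptor stain after lysis of red cells, and low-input RNA was amplified before sequencing. The sources used here do not say whether a library came from 1 mouse or a pool, and p-values measure the spread between these libraries.

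Gene reads came to 24.13 to 25.9 M per control library and 19.46 to 24.09 M per knockout-labelled library. Knockout-labelled replicate 3 had the fewest gene reads and the highest share of unaligned reads, 11.62% against 6.3 to 8.37% in the other 5. Bap1 itself went against the labels as a whole-gene count, at 1139 ± 181 normalized counts in the controls against 2983 ± 319.1 in the knockout-labelled group (SD, n = 3 each), a rise of 1.39 ± 0.14 in log2 units (SE, limma adjusted p = 6.07e-05). A count over the whole gene does not show whether the floxed part was lost, so the groups are named by their labels throughout. By sex-linked genes, 1 library of each group (control replicate 1 and knockout-labelled replicate 3) came from a female mouse and the other 4 from males. GMP markers were high: Mpo, the myeloperoxidase of granulocyte precursors, stood at 509900 ± 18680 and 635300 ± 122900 normalized counts (SD, n = 3 each).

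Red cells are made from progenitors that respond to erythropoietin, a kidney hormone. Its receptor Epor signals through the kinase Jak2 and the transcription factor Stat5, and the transcription factors Gata1 and Klf1 switch on globins, heme synthesis enzymes and membrane proteins. Alpha- and beta-globin pair with heme to form hemoglobin, Rhag sits in the red cell membrane with the Rh proteins and conducts ammonia, and carbonic anhydrases interconvert carbon dioxide and bicarbonate. GMPs lie on a separate branch, so these genes are usually low in them, although Gata1 also serves megakaryocytes, mast cells and eosinophils and Car2 is made in many cell types.

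Of the 10 genes, 6 were higher in the knockout-labelled group, Car2 was lower, and Klf1, Gata1 and Car1 did not pass the test. Over all 14391 genes tested by the same limma fit, 1695 (11.8%) were called higher and 2163 (15%) lower at an adjusted p of 0.05, so 56.1% of all calls were lower, a share that was 41.8% after a correction for GC content and length. The median log2 fold change was 1.91 over the 10 genes and 0.0054 over all genes tested. The 10 genes and the lists below had been chosen with earlier results of these data known. Their shares and medians beside those of all genes are therefore a description and not a test. Of the 6, Hba-a2 had a control mean of 4.26, under the filter of 10, and passed through its knockout-labelled values. All fold changes below are on the scale of log2(value + 1), where a value is a normalized count, the number of reads divided by the library's size factor. In bulk RNA, more cells of a type and more RNA per cell cannot be told apart.

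**Figure D1:**
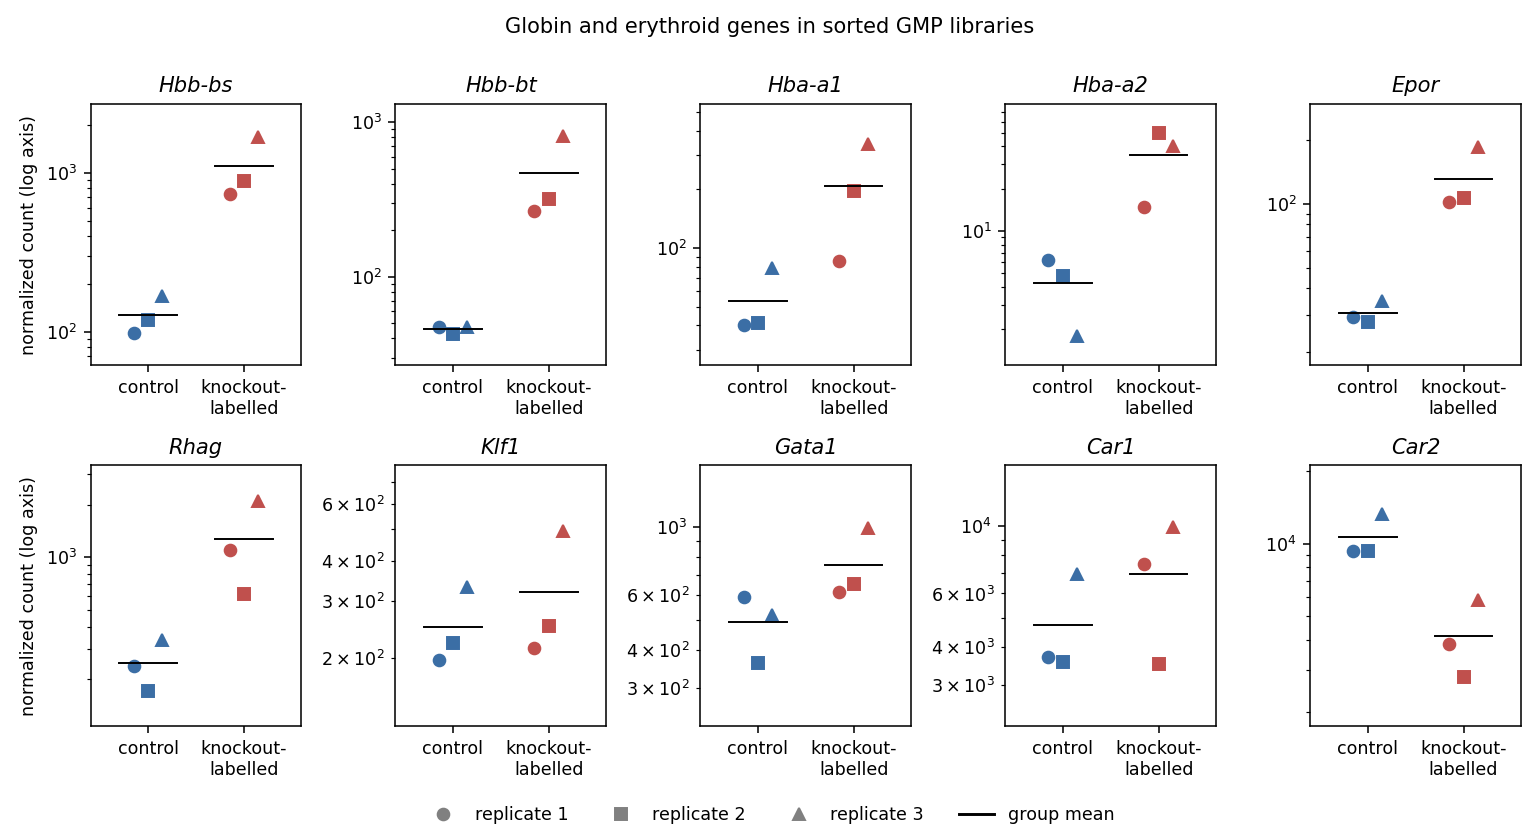
Normalized counts (log axis) of the 10 genes in each of the 3 control and 3 knockout-labelled libraries; symbols mark the replicate and bars the group mean. The groups are separate for all but Klf1 and Car1, and Car2 is the gene whose knockout-labelled libraries all lie below the controls. The share of all genes tested whose groups are separate was not computed, so this separation has no background beside it.

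The globin genes come in near-identical pairs, and the sequences show how little separates a read of a gene from a read of its partner. In the GENCODE transcripts, Hba-a1 and Hba-a2 differ at 1 of 426 coding bases and Hbb-bs and Hbb-bt at 1 of 441, an identity of 99.8% for each pair. The 60 coding bases around that position are given for each gene, with the differing base in capitals.
Hba-a1, coding bases 351 to 410: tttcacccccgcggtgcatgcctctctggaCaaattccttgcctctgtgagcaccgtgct
Hba-a2, coding bases 351 to 410: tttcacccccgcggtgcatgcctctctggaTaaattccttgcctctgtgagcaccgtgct
Hbb-bs, coding bases 382 to 441: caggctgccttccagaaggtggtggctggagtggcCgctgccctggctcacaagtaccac
Hbb-bt, coding bases 382 to 441: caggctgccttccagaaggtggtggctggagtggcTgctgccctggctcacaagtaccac
Apart from that base, a read within either pair's coding sequence fits both genes. Counted over windows of 100 bases along each gene's longest transcript, 62.6% of those of Hbb-bs and 54.8% of those of Hbb-bt also occurred in the partner, as did 56.5% for Hba-a1 and 74.5% for Hba-a2. The table lists reads that align to more than 1 place in a row of their own, so the 4 globin values rest mainly on the parts that differ and are undercounts. For Car1 2.9% of windows recurred in the pseudogene Gm5843, and for the other 5 genes 0% recurred elsewhere.

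The beta-globin gene Hbb-bs (ENSMUSG00000052305) was 8.18-fold higher in the knockout-labelled group. It stood at 98.62, 118.5 and 166.7 normalized counts in control replicates 1 to 3 and at 731.8, 881.9 and 1690 in knockout-labelled replicates 1 to 3. The lowest knockout-labelled value lay far above the highest control value. The log2 fold change was 3.03 ± 0.30 (SE, n = 3 against 3; limma adjusted p = 4.67e-05).

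Hbb-bt (ENSMUSG00000073940), its partner in the beta-globin cluster of C57BL/6 mice, rose by 3.14 ± 0.37 in log2 units (SE, n = 3 against 3; limma adjusted p = 0.000155), 8.80-fold. Its control libraries were tightly grouped at 47.09, 43.0 and 47.24 normalized counts, and its knockout-labelled libraries spread from 265.6 and 317.6 in replicates 1 and 2 to 818.8 in replicate 3. Without knockout-labelled replicate 3, the log2 fold change was 2.64 for Hbb-bt and 2.68 for Hbb-bs, and both stayed called whichever library was left out.

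Both alpha-globin genes rose with the beta pair, from lower values and with wider errors. Hba-a1 (ENSMUSG00000069919) stood at 39.98, 41.09 and 78.44 normalized counts in the controls and at 85.34, 196.8 and 343.7 in the knockout-labelled group. The groups did not overlap, but knockout-labelled replicate 1 was close to control replicate 3. Its log2 fold change was 1.81 ± 0.47 (SE, n = 3 against 3; limma adjusted p = 0.0147), 3.5-fold. The call was lost without control replicate 2 (1.66, limma adjusted p = 0.0548), without knockout-labelled replicate 2 (1.74, limma adjusted p = 0.0591) and without knockout-labelled replicate 3 (1.34, limma adjusted p = 0.0548).

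Hba-a2 (ENSMUSG00000069917), the least counted of the 10 genes, stood at 6.219, 4.777 and 1.783 normalized counts in the controls, which are 7, 5 and 2 reads. In the knockout-labelled libraries it stood at 14.93, 49.98 and 39.97, from 14, 48 and 35 reads. Every knockout-labelled value was above every control value, and the control level rests on 14 reads in all. Its control mean, 4.26, was under the filter of 10, so the gene passed through its knockout-labelled values. Its log2 fold change was 2.72 ± 0.70 (SE, n = 3 against 3; limma adjusted p = 0.0144), 6.59-fold. It missed the threshold without knockout-labelled replicate 2 (2.39, limma adjusted p = 0.0677) or replicate 3 (2.55, limma adjusted p = 0.0538).

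Added up, the 4 globin genes gave 8.339, 8.994 and 12.78 reads per 1000000 gene reads in the controls and 45.17, 57.67 and 130.1 in the knockout-labelled group. Globin reads were thus a small part of every library. The beta pair made up 75.93, 77.88 and 72.73% of the normalized globin counts in the controls and 90.86, 82.94 and 86.74% in the knockout-labelled group, without overlap, and the difference was not tested. Within the beta pair the ratio of Hbb-bs to Hbb-bt overlapped between groups, at 2.094, 2.756 and 3.528 against 2.755, 2.777 and 2.064. These shares and ratios rest on undercounts and are not per length. The part of a transcript that its partner shares also differs among the 4 genes, so they do not give the true proportions of globin RNA.

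The other globin genes were at or near 0 in every library. Among them the embryonic Hbb-y and Hba-x, Hbb-bh2 and Hbq1a had 0 reads, Hbb-bh1 had a single read, in knockout-labelled replicate 3, and Hbq1b reached at most 10.28 normalized counts, in the same library. A count of 0 allows up to 3 reads per library for counting error alone. Hbb-b1, Hbb-b2 (the adult genes of another beta-globin haplotype) and the hemoglobin chaperone Ahsp matched no row.

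**Figure D2:**
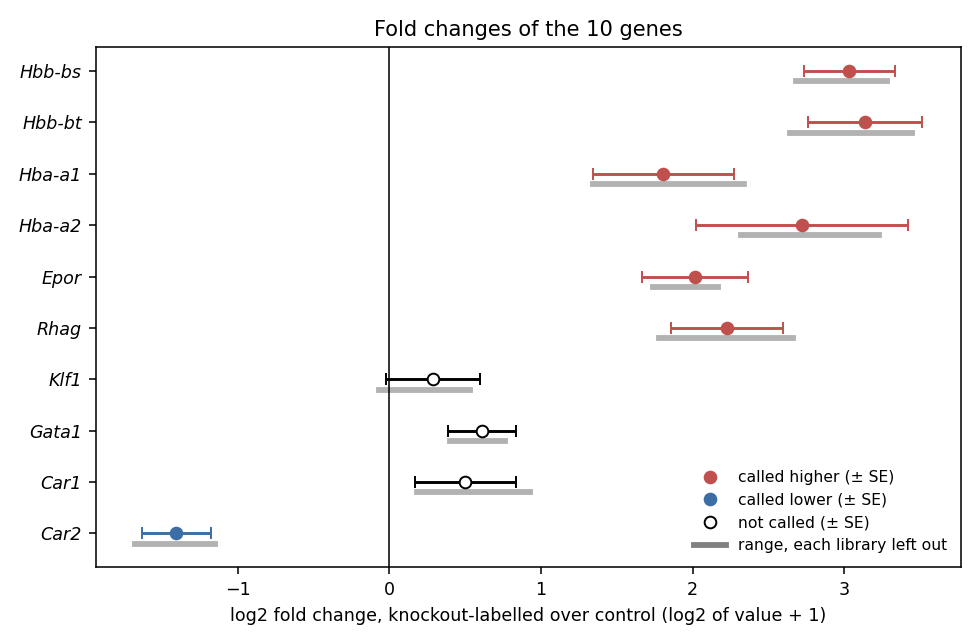
Log2 fold change (knockout-labelled over control, of value + 1) of each of the 10 genes with its SE from limma; grey bars span the values obtained when each of the 6 libraries was left out. The 4 globins, Epor and Rhag lie between 1.81 and 3.14, Car2 lies at -1.41, and the grey bar of Klf1 crosses 0.

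Epor (ENSMUSG00000006235), the receptor through which erythropoietin keeps red cell progenitors alive, was 4.05-fold higher in the knockout-labelled group. Its values were 29.32, 27.71 and 34.76 normalized counts in the controls and 102.4, 106.2 and 185.0 in the knockout-labelled group. Replicates 1 and 2 of the knockout-labelled group lay close together, and replicate 3 lay above them. In log2 units the fold change was 2.02 ± 0.35 (SE, n = 3 against 3; limma adjusted p = 0.00168), and ran from 1.74 to 2.17 as each library was left out.

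Among 14 tested genes of erythropoietin receptor signalling, Epor included, 6 rose (42.9%, against 11.8% of all genes tested) and 2 fell (14.3%, against 15%). Of the 6, Socs2 had a control mean of 6.879, under the filter of 10, and passed through its knockout-labelled values. The list's median log2 fold change was 0.38. The gene with the lowest adjusted p was Erfe, which encodes erythroferrone, a hormone that erythroblasts secrete in response to erythropoietin to release iron. Erfe stood at 10.66, 8.599 and 34.76 normalized counts in the controls and at 145.1, 144.7 and 135.9 in the knockout-labelled group. Unlike Epor, it was no higher in knockout-labelled replicate 3 than in replicates 1 and 2. Its log2 fold change was 3.17 ± 0.49 (SE, n = 3 against 3; limma adjusted p = 0.000806).

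The other 4 that rose can act downstream of the receptor, and whether signalling through Epor had a part in their values was not tested. Pim1, a survival kinase, rose by 1.42 and Cish, a feedback inhibitor of Stat5 signalling, by 1.01 in log2 units (adjusted p from limma, 0.0176 and 0.0268). Socs2, another feedback inhibitor, was called at 2.90 (limma adjusted p = 0.0475) although its lowest knockout-labelled value, 17.07 normalized counts, was under its highest control value, 17.77. Bcl2l1, which encodes an anti-apoptotic protein, rose by 0.51 (limma adjusted p = 0.0337). These 4 calls were not stable when libraries were left out: Pim1 was lost without control replicate 2 or 3 or knockout-labelled replicate 3, Cish without those or knockout-labelled replicate 2, and Bcl2l1 without any of 5 libraries, at adjusted p values up to 0.0648, 0.102 and 0.114. Socs2 was lost under 10 of 15 alternatives, at limma adjusted p values up to 0.153.

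The genes that fell are the receptor's own kinase Jak2, by 0.80 in log2 units (limma adjusted p = 0.049), and the Src family kinase Lyn, by 0.49 (limma adjusted p = 0.0197). Jak2 was lost under 9 of 16 alternatives, at adjusted p values up to 0.168, and Lyn under 3, without control replicate 2 or 3 and with the GC and length correction, at up to 0.154. Of the Stat5 genes, Stat5a stood at 651.9 ± 98.75 and 789.9 ± 220.2 normalized counts (SD, n = 3 each; limma adjusted p = 0.403) and Stat5b at 476.1 ± 45.47 and 346.3 ± 24.09 (limma adjusted p = 0.0641), so neither was called.

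Rhag (ENSMUSG00000023926) was 4.68-fold higher in the knockout-labelled group. It stood at 237.2, 172.0 and 336.9 normalized counts in the controls and at 1096, 617.4 and 2107 in the knockout-labelled group. The lowest knockout-labelled library was replicate 2, and it still exceeded every control library. In log2 units Rhag rose by 2.23 ± 0.37 (SE, n = 3 against 3; limma adjusted p = 0.00129), and this ran from 1.78 to 2.66 as each library was left out.

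The Rh relatives of Rhag were not called. Rhd, the Rh protein that Rhag carries to the membrane, stood at 313.5 ± 97.87 and 223.7 ± 67.96 normalized counts in the 2 groups (control first, SD, n = 3 each; limma adjusted p = 0.228). Rhcg, an ammonia channel best known from the kidney, stood at 27.76 ± 27.55 and 34.85 ± 15.81 (limma adjusted p = 0.461). Whether Rhag differed from them in its change was not tested.

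Of 21 tested genes of the red cell membrane and blood groups, 17 were not called, with a median log2 fold change of 0.36. In this list 0 fell (against 15% of all genes tested) and 4 rose (19.0%, against 11.8%). Besides Rhag, these were Add2, the beta-adducin of the membrane skeleton (34.56 ± 19.37 and 115.6 ± 41.35 normalized counts, SD, n = 3 each; log2 fold change 1.81, limma adjusted p = 0.0122), Cd47, a surface protein that restrains phagocytosis and is present on most cells (0.41, limma adjusted p = 0.0242), and Sptb, the red cell beta-spectrin (2.69, limma adjusted p = 0.0467). Sptb went from 0, 8.599 and 13.37 to 34.14, 36.44 and 27.41 normalized counts, and like Socs2 its control mean was under the filter of 10. Cd47 was lost without any 1 of the control libraries, at adjusted p values up to 0.102, and Sptb under 10 of 15 alternatives, at up to 0.127. Slc4a1, the anion exchanger band 3 that helps define the red cell membrane, was low and not called, at 15.1, 20.07 and 1.783 against 5.334, 29.15 and 50.24 normalized counts, with overlapping groups.

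**Figure D3:**
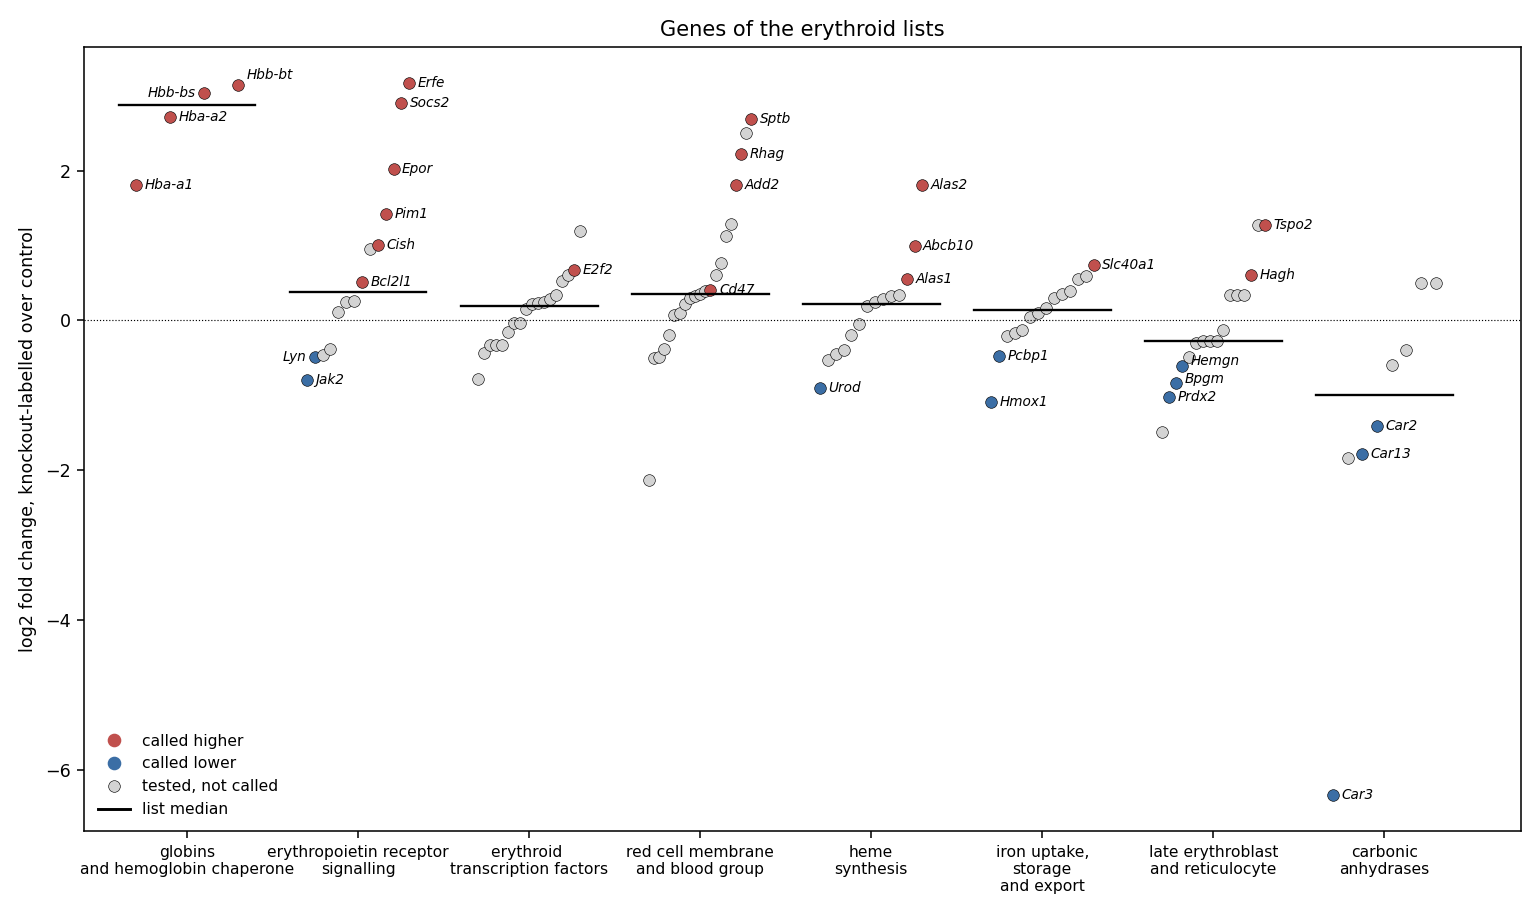
Log2 fold changes (knockout-labelled over control) of the tested genes in 8 erythroid gene lists, each point 1 gene, with called genes named and list medians as bars. All 4 tested globins are called higher, 1 of 18 transcription factors is, and the carbonic anhydrases have called genes in the lower direction alone.

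Of the transcription factors, neither Klf1 nor Gata1 passed the test. Klf1 (ENSMUSG00000054191), which binds CACCC boxes and activates beta-globin, stood at 197.2, 222.6 and 331.6 normalized counts in the controls and at 214.4, 250.9 and 493.3 in the knockout-labelled group. The groups overlapped: knockout-labelled replicate 1 lay below control replicate 2. Its log2 fold change was 0.29 ± 0.31 (SE, n = 3 against 3; limma adjusted p = 0.53), and its sign turned without knockout-labelled replicate 3 (-0.07, limma adjusted p = 0.867) and with the GC and length correction (-0.09, limma adjusted p = 0.835).

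Gata1 (ENSMUSG00000031162), the X-linked factor that binds GATA sites, stood at 590.9, 362.1 and 517.9 normalized counts in the controls and at 614.4, 652.8 and 986.6 in the knockout-labelled group. The groups did not overlap, though knockout-labelled replicate 1 was close to control replicate 1. The log2 fold change was 0.61 ± 0.23 (SE, n = 3 against 3; limma adjusted p = 0.0653), short of the threshold. Gata1 was called higher by DESeq2 (0.61, adjusted p = 0.0379), with sex as a covariate (0.61, limma adjusted p = 0.0217), without knockout-labelled replicate 1 (0.74, limma adjusted p = 0.0488) and with the GC and length correction (0.59, limma adjusted p = 0.0476), and leaving out other libraries brought it down to 0.40. The mast cell, basophil and eosinophil markers, cells that also use Gata1, summed to 97970 to 104300 normalized counts in the controls and 47180 to 61430 in the knockout-labelled group. Of 11 tested, 6 fell (54.5%, against 15% of all genes tested) and Mcpt8, a basophil protease, rose (9.1%, against 11.8%). The lowest adjusted p of the 6 was that of Prss34, which fell by 5.02 in log2 units (limma adjusted p = 1.46e-07). It went from 27880 ± 3337 to 891 ± 294.5 normalized counts (SD, n = 3 each). Mcpt8 was lost without control replicate 1 or 2, at adjusted p values up to 0.0715, and Cpa3, 1 of the 6, under 7 of 16 alternatives, at up to 0.278. None of the 12 in the table was at 0 in all libraries. Their part in the Gata1 values was not tested.

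Of 18 tested erythroid transcription factors, E2f2, a cell cycle factor of late erythroblasts, rose (0.67 ± 0.18 in log2 units, SE, limma adjusted p = 0.0176) and 0 fell, with a list median of 0.18. That is 5.6% called higher and 0% lower, against 11.8% and 15% of all genes tested. E2f2 was no longer called when control replicate 1 or 3 or knockout-labelled replicate 2 was left out, at limma adjusted p values up to 0.0632. The partners of Gata1 and Klf1 were not called: Tal1 stood at 124 ± 35.24 and 100.8 ± 42.27 normalized counts (SD, n = 3 each; limma adjusted p = 0.524), Gfi1b at 289.5 ± 98.84 and 411.7 ± 135.5 (limma adjusted p = 0.215), and the Gata1 cofactor Zfpm1 at 7.132 ± 6.244 and 14.16 ± 6.857 (limma adjusted p = 0.343).

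Since Gata1 and Klf1 recognize short DNA motifs, the 250 bases before the transcript start were read for the 8 of the 10 genes with a RefSeq promoter entry (GRCm38.p6). Those of Hbb-bs, Hba-a1, Epor and Rhag, which rose, and of Klf1, which did not pass the test, are given 5′ to 3′ on the gene's strand. All 5 stretches lie upstream of the first exon and end at the base before the start. Capitals mark matches on either strand to a GATA motif (AGATAA or AGATAG, and the forms beginning with T, TGATAA or TGATAG) or to CACCC.
Hbb-bs, chr7:103827929-103828178, minus strand: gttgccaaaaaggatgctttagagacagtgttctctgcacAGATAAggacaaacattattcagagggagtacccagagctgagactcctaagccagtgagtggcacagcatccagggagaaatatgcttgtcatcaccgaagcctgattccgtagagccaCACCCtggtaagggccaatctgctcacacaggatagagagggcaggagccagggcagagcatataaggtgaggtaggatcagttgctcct
Hba-a1, chr11:32283422-32283671, plus strand: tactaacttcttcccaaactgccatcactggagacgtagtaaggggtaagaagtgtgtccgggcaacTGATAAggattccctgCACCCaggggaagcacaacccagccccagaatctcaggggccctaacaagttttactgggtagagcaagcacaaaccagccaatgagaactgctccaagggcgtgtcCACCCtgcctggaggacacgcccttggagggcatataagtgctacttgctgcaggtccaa
Epor, chr9:21963577-21963826, minus strand: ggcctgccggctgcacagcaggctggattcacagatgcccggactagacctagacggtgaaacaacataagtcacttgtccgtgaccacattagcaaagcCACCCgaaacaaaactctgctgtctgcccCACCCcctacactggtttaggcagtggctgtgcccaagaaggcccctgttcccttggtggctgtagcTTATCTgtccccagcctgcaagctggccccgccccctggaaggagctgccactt
Rhag, chr17:40810899-40811148, plus strand: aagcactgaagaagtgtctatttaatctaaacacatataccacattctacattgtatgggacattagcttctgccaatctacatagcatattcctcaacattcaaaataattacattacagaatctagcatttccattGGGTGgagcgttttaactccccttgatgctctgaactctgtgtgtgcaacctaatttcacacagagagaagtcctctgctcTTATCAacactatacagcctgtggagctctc
Klf1, chr8:84901732-84901981, plus strand: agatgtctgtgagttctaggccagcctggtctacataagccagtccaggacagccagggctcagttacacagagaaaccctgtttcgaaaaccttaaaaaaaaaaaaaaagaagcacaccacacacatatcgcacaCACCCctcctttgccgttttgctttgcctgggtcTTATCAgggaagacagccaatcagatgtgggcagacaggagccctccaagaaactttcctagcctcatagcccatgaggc
A GATA motif was found in 6 of the 8 promoters (Hbb-bs, Hba-a1, Hba-a2, Epor, Rhag and Klf1), against 26.5% of 32851 promoters of the same length. CACCC was found in all 8, against 52.0%, and CCAAT, a common promoter motif searched on both strands, in 6 of 8, against 33.8%. In Rhag the CACCC match shares bases with a CCAAT match, and no other matches of different motifs overlap. The promoters of Hba-a1 and Hba-a2 were the same over 247 bases at an offset of 3, so they are not separate examples. Both kinds of match occurred in promoters of genes that rose and in that of the uncalled Klf1, while Hbb-bt, which rose, and the uncalled Gata1 had no GATA match in this window. A match describes the letters of this window and says nothing of binding.

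Car1 and Car2 are cytosolic carbonic anhydrases, and they were the most abundant of the 10 genes in the controls. Car1 (ENSMUSG00000027556), the form that early erythroid progenitors switch on, stood at 3707, 3570 and 6945 normalized counts in the controls and at 7488, 3514 and 9897 in the knockout-labelled group. The groups overlapped, since knockout-labelled replicate 2 was the lowest of all 6 libraries. The log2 fold change was 0.50 ± 0.34 (SE, n = 3 against 3; limma adjusted p = 0.296). Without knockout-labelled replicate 2 it was 0.93 and was called (limma adjusted p = 0.0364), and over the other libraries left out it went down to 0.18.

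Car2 (ENSMUSG00000027562) moved the other way. It stood at 9343, 9367 and 13240 normalized counts in the controls and at 3840, 2790 and 5813 in the knockout-labelled group. Every knockout-labelled value was below every control value. Car2 fell by 1.41 ± 0.23 in log2 units (SE, n = 3 against 3; limma adjusted p = 0.00108), 2.65-fold lower, and the value ran from -1.68 to -1.15 as each library was left out. The ratio of the normalized counts of Car1 to those of Car2 within a library was 0.3967, 0.3811 and 0.5245 in the controls and 1.95, 1.259 and 1.702 in the knockout-labelled group. The ratios did not overlap between the groups, and they are not per length.

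Of 8 tested carbonic anhydrases, 3 fell (37.5%, against 15% of all genes tested) and 0 rose (against 11.8%). Their median log2 fold change was -1.0. Car3, a cytosolic form abundant in muscle and fat, went from 350.1, 279.0 and 330.7 normalized counts in the controls to 12.8, 0 and 3.426 in the knockout-labelled group. Its log2 fold change was -6.34 ± 0.75 (SE, n = 3 against 3; limma adjusted p = 0.000148). The knockout-labelled mean, 5.409, was under the filter of 10, so Car3 passed through its control values, and the size of its change depends on the pseudocount and the libraries kept: it was -7.25 without knockout-labelled replicate 1, -5.35 without knockout-labelled replicate 2 and -5.35 with a pseudocount of 4, and it was called under all 16 alternatives. Car13, also cytosolic, fell by 1.79 (190.2 ± 54.08 and 53.66 ± 10.47 normalized counts, SD, n = 3 each; limma adjusted p = 0.00152).

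The genes that supply hemoglobin with heme and iron were mixed. Of 14 tested genes of heme synthesis, 3 rose (21.4%, against 11.8% of all genes tested) and 1 fell (7.1%, against 15%). Abcb10, a mitochondrial transporter needed for heme synthesis in erythroid cells, rose from 587.9 ± 113.3 to 1177 ± 246.4 normalized counts (SD, n = 3 each; log2 fold change 1.00, limma adjusted p = 0.00249). Alas1, the aminolevulinate synthase of all tissues, rose by 0.56 in log2 units (limma adjusted p = 0.017), but leaving out control replicate 2 or 3 or knockout-labelled replicate 2 ended the call, at adjusted p values up to 0.0857. Alas2, the erythroid form of the same enzyme, stood at 13.33, 10.51 and 23.18 normalized counts in the controls and 24.53, 69.76 and 92.5 in the knockout-labelled group. It was called at 1.80 ± 0.56 (limma adjusted p = 0.0342), which was lost without control replicate 1 or 2, without knockout-labelled replicate 2 or 3 and without the filter on low values, at adjusted p values up to 0.125. Urod, uroporphyrinogen decarboxylase, fell by 0.90 (2220 ± 157.3 and 1192 ± 113.6; limma adjusted p = 0.00049).

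Of 14 tested iron genes, Slc40a1, the iron exporter ferroportin, rose by 0.74 in log2 units (limma adjusted p = 0.00149), while Hmox1, the heme-degrading oxygenase, fell by 1.09 (limma adjusted p = 0.00763) and Pcbp1, an iron chaperone, by 0.47 (limma adjusted p = 0.0215). So 7.1% were called higher and 14.3% lower, against 11.8% and 15% of all genes tested. Pcbp1 was lost without any 1 of the control libraries, at adjusted p values up to 0.109. The transferrin receptor Tfrc, which loads erythroblasts with iron, stood at 1563 ± 273.6 and 2063 ± 376.7 normalized counts (SD, n = 3 each; limma adjusted p = 0.103), short of the threshold.

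Of 16 tested genes of late erythroblasts and reticulocytes, 2 were called higher (12.5%) and 3 lower (18.8%), near the 11.8% and 15% of all genes tested. Their median log2 fold change was -0.27. Tspo2, an erythroid membrane protein, rose by 1.28 (93.57 ± 25.42 and 223.1 ± 15.8 normalized counts, SD, n = 3 each; limma adjusted p = 0.00446), and Hagh, hydroxyacylglutathione hydrolase, by 0.60 (limma adjusted p = 0.00611). Prdx2, the peroxiredoxin of red cells, fell by 1.02 (limma adjusted p = 0.000102), Bpgm, which makes the bisphosphoglycerate that loosens oxygen from hemoglobin, by 0.84 (limma adjusted p = 0.00344), and Hemgn by 0.62 (limma adjusted p = 0.0459). Hemgn was lost under 9 of 16 alternatives, at adjusted p values up to 0.248.

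Over all erythroid lists together and with the 10 genes left out, 15 of 99 tested genes (15.2%) rose and 10 (10.1%) fell, with a median log2 fold change of 0.19. Over all genes tested the shares were 11.8% and 15%. With the 10 genes counted in, 21 list genes were called higher, 12 without control replicate 2 and 37 with the GC and length correction. Likewise 11 were called lower, against 7 without control replicate 2 and 7 without control replicate 3.

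**Figure D4:**
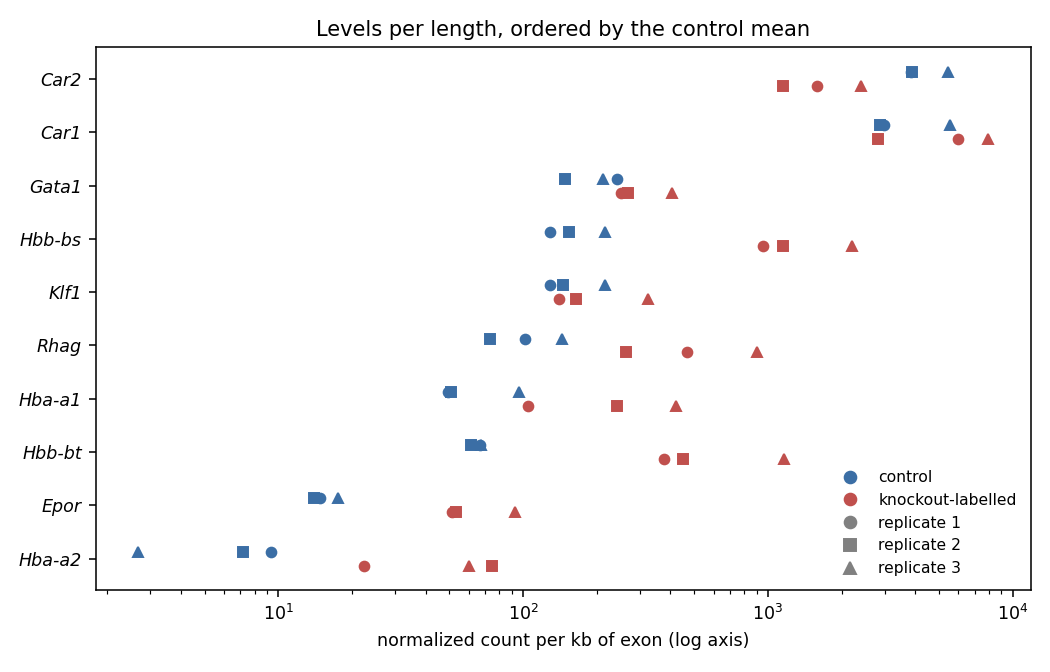
Normalized counts per kb of exon (log axis) of the 10 genes in each library, ordered by control mean; colour marks the group and symbol the replicate. Car1 and Car2 lie above the other genes in the controls, and by their means Hbb-bs, Hbb-bt and Rhag lie above Gata1 in the knockout-labelled group.

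Per kb of exon, the scale on which levels of different genes can be set side by side, the control order from high to low was Car2 (mean 4397 normalized counts per kb), Car1 (3798), Gata1 (201.1), Hbb-bs (166.6), Klf1 (163.7), Rhag (106.3), Hba-a1 (65.48), Hbb-bt (65.12), Epor (15.38) and Hba-a2 (6.387). Car2 and Car1 overlapped in their ranges over the 3 libraries, as did each pair of neighbours from Gata1 down to Hbb-bt. Clear steps lay between Car1 and Gata1, between Hbb-bt and Epor (13.93 to 17.48) and between Epor and Hba-a2 (2.673 to 9.325).

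In the knockout-labelled libraries the order was Car1 (5582 normalized counts per kb), Car2 (1713), Hbb-bs (1434), Hbb-bt (664.7), Rhag (544.4), Gata1 (308.2), Hba-a1 (256.9), Klf1 (208.9), Epor (65.96) and Hba-a2 (52.41). Hbb-bs, at 952.8 to 2201 per kb, then overlapped Car2, at 1152 to 2400 per kb. Car1 stood apart from Car2 and Klf1 from Epor, and all other neighbours overlapped. The globin levels per kb are undercounts for the reason given with their sequences.

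Within the knockout-labelled group, 9 of the 10 genes were highest in replicate 3, all but Hba-a2, which was highest in replicate 2. Among controls, 8 of the 10 were highest in replicate 3, and Hba-a2 and Gata1 in replicate 1. The pattern held for genes that rose, for Car2, which fell, and for those not called. Replicate 3 of the knockout-labelled group was also the library with the fewest gene reads and the most unaligned reads, and the part of this in the values was not tested. Without it, Hbb-bs, Hbb-bt, Epor, Rhag and Car2 kept their calls, and Hba-a1 and Hba-a2 did not.

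**Figure D5:**
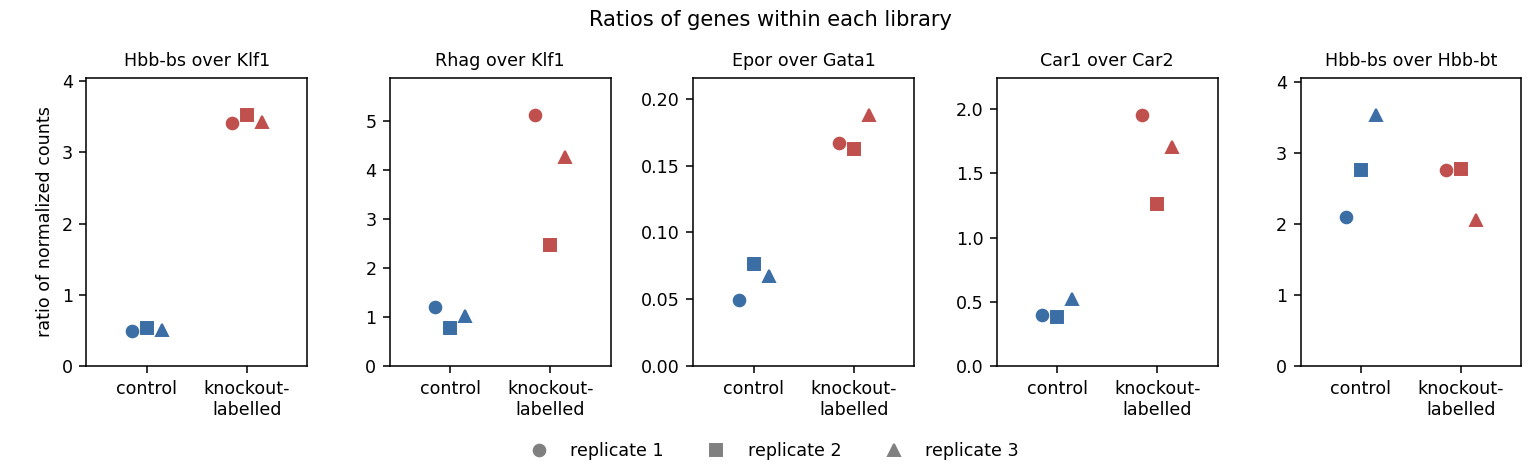
Ratio of the normalized counts of 2 genes within each library, for 5 pairs, with symbols for the replicate. Hbb-bs over Klf1 is near 0.5 in all 3 control libraries and between 3.413 and 3.515 in the knockout-labelled group, and Hbb-bs over Hbb-bt overlaps between the groups.

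Ratios within a library set Hbb-bs, Rhag and Epor against the transcription factors Klf1 and Gata1. These pairs were chosen after the values had been seen and are given without a test. Hbb-bs over Klf1 was 0.5, 0.5322 and 0.5027 in the controls and 3.413, 3.515 and 3.426 in the knockout-labelled group, so the spread of Hbb-bs within a group went with that of Klf1. For Rhag over Klf1 the ratio was 1.203, 0.7725 and 1.016 in the controls and 5.109, 2.461 and 4.271 in the knockout-labelled group. For Epor over Gata1 it was 0.04962, 0.07652 and 0.06713 against 0.1667, 0.1627 and 0.1875. None of these 3 ratios overlapped between groups.

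Markers of other cell types that such a sort could hold moved in several directions. The marker calls below stand beside 11.8% called higher and 15% called lower over all genes tested. The erythroid marker list, which includes 5 of the 10 genes, summed to 5053 to 9038 normalized counts in the controls and 5678 to 14650 in the knockout-labelled group. Car1, which was not called, led that sum, at 4740 ± 1910 and 6966 ± 3223 (SD, n = 3 each). Of 11 tested, 3 were called higher (Rhag, Epor and Alas2) and Hemgn lower, and 0 of the 11 were at 0 throughout. Megakaryocyte markers summed to 2702 to 4308 against 1547 to 3602, with 1 of 11 tested called higher (Gp1ba, lost under 5 of 16 alternatives, at adjusted p values up to 0.133) and 5 lower, among them Pf4, platelet factor 4, which fell by 2.96 (limma adjusted p = 8.86e-06). Gp6, the platelet collagen receptor, had 5 reads, all in control replicate 2, and was at 0 in the other 5 libraries. Stem and multipotent markers summed to 11130 to 11630 against 8100 to 8909, with 0 of 9 called higher, 3 lower and 6 not called. Most of that sum was Cd48, which was called lower, at 9539 ± 213.1 and 6570 ± 271.9 normalized counts (SD, n = 3 each). The fall of the sum is thus mainly that of Cd48.

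GMP markers summed to 889600 to 963800 normalized counts in the controls and 1105000 to 1601000 in the knockout-labelled group. That sum was led by Mpo, which was not called (limma adjusted p = 0.251), and Elane. Of the 11 GMP markers, 5 rose, including the granule protease Ctsg, and 2 fell, including Cd34, a surface protein of the sorting gate, which went down by 1.54 in log2 units (limma adjusted p = 5.04e-06). Among the 5, Elane lost its call under 5 of 16 alternatives, Kit under 3 and Cebpe under 1, at adjusted p values up to 0.129, 0.0936 and 0.0667. Markers of the macrophages that sit in erythroblastic islands summed to 8941 to 9489 against 18970 to 25650, a sum led by Vcam1, an adhesion protein that other cells make too, which rose by 2.32 (limma adjusted p = 1.55e-06). Of 10 tested, Vcam1 and Slc40a1 rose and 5 fell, Siglec1 was at 0 in all but a single read, and Maf was at 0 in the knockout-labelled group. The part of any of these cell types in the globin, Epor and Rhag values was not tested.

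For each of the 10 genes, the genes with the most similar pattern were found by the root mean square difference of centred log2(value + 1) over the 6 libraries, where 0 is an identical pattern. The nearest gene to Hbb-bs was Hbb-bt (0.262), followed by Trp53i11 (0.27), while Hbb-bt was nearest to the metallothionein Mt2 (0.253) and to Perp (0.257). Hba-a1 was nearest to Alas2 (0.156), the erythroid heme enzyme, and next to Mroh8 (0.303), and Hba-a2 to Evpl (0.432) and Lrg1 (0.459). Epor lay close to Nacc2 (0.083) and Emilin2 (0.139), and Rhag to Lax1 (0.3) and Dkkl1 (0.307). For the uncalled genes the nearest were Gm12256 (0.102) and Afmid (0.117) for Klf1, Gm11604 (0.073) and Gm12034 (0.075) for Gata1, and Gm6728 (0.148) and B430212C06Rik (0.166) for Car1. Car2 was nearest to Synj2 (0.126), which went from 154.6, 142.4 and 174.7 to 53.34, 45.81 and 81.08 normalized counts, and next to the amino acid transporter Slc16a10 (0.139). The distances were taken over 6 libraries, and neighbours were picked from those of the 14391 genes tested that have a symbol. A gene without a symbol could lie nearer, and the distances are a description.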

How the data were processed

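RNA-seq of sorted GMPs was deposited as 1 table of 6 libraries. Per the submitters' processing notes the tools included HTSeq, STAR, Picard, DESeq2 and BWA 0.7.5a, on builds mm9 and NCBIM37, with no roles given. Strand use in counting is not stated in these sources, so a gene and its antisense partner may share reads. The deposited signal per gene and library was a gene count that the authors had divided by a size factor: 100% of values up to 10000 reads were whole multiples of the value of 1 read (0.8885 to 1.1419), within 0.01 of a read. Gene reads were 22.86 to 25.19% of all reads listed. The 5 rows that name no gene (unaligned, 6.3 to 11.62%; not unique, 26.76 to 28.79%; outside genes, 38.39 to 40.9%; ambiguous, 0.12 to 0.13%; low quality, 0%) stayed out of tests. Of 37620 gene IDs, 32897 had a symbol in GENCODE M21, which is on another build (GRCm38) and gave names, exon lengths, GC content and transcript sequences. Promoters are from RefSeq (GRCm38.p6).

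Groups were compared on log2(value + 1) by limma 3.58.1 in R 4.3.3, with its trend option and no term but group, 2-sided, over genes whose mean was 10 or more, called at a Benjamini-Hochberg adjusted p of 0.05 over 14391 genes. It understates changes of low genes. It was tested on simulated data. The 16 alternatives were edgeR 4.0.16 and DESeq2 1.42.0 on recovered reads, 2 filters, 2 pseudocounts, TMM scaling, the replicate block, sex, GC content and length, and each library left out. PCR reads without molecular identifiers are not independent molecules, so floors cover counting error only.

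The 10 genes and the gene lists were chosen with earlier results of these data known. Named were the 10 genes, the 2 called genes with the lowest adjusted p per list and direction, other globins with a read, the 2 nearest patterns per gene and defining markers. Other list genes (Pim1, Cish, Socs2, Bcl2l1, Stat5a, Stat5b, Rhd, Rhcg, Cd47, Sptb, Tal1, Gfi1b, Zfpm1, Car13, Alas2, Tfrc and Hemgn) were named after their values were seen. The markers Cd48 and Prss34 were also named after their values were seen. Coding identity was taken from ungapped comparison of GENCODE coding sequences. Replicate numbers are not said to pair the libraries, and the main fit did not use them as pairs.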

Additional observations from a re-analysis of the deposited data

How the results depend on the processing

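Hbb-bs, Hbb-bt, Epor, Rhag and Car2 kept direction and call under all 16 alternatives. With each library left out in turn, the log2 fold change of Hba-a1 ran from 1.34 to 2.34, Hba-a2 from 2.32 to 3.23, Klf1 from -0.07 to 0.53, Gata1 from 0.40 to 0.76 and Car1 from 0.18 to 0.93. Klf1 stood at -0.09 with the GC and length correction. Gata1 was called at 0.61 by DESeq2, at 0.61 with the replicate block, at 0.61 with sex as a covariate and at 0.59 with the GC and length correction. Erythroid list genes called higher numbered 37 with that correction and 12 to 25 as libraries were left out, and those called lower 7 to 12. All genes called higher numbered 2639 with that correction and 1058 to 1796 as libraries were left out, and those called lower 1413 to 2354. The cause of these changes was not tested. Leaving a library out also leaves fewer libraries to estimate the spread. The correction covered 95.9% of the genes tested. Hba-a2 fell under the filter at a mean of 50 and has no value there.

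The replicate numbers in the labels were checked as a pairing. Over all genes tested, deviations from the group means of same-numbered libraries correlated at -0.104, 0.042 and -0.058. Such a check cannot decide whether same-numbered libraries shared a batch. Of the 10 genes, 8 in the controls and 9 in the knockout-labelled group were highest in replicate 3, and this was not tested. With the replicate block, 1550 genes were called higher and 2014 lower. Of 52 called list and marker genes other than the 10, 31 kept their call under every alternative that could be run for them and 21 lost it under at least 1. Depth limits Hba-a2 most, at 2 to 7 reads per control library, and the unassigned reads of the globin pairs cannot be recovered from gene counts.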
